A study of Mus musculus with 16 samples.

Results

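Transcripts of 9 genes known to be induced by glucocorticoids, and of the glucocorticoid receptor gene *Nr3c1*, were followed in bulk RNA-Seq of mouse cortex. The genes were *Hif3a*, *Fkbp5*, *Tsc22d3*, *Sgk1*, *Zbtb16*, *Pdk4*, *Cdkn1a*, *Mt1*, *Mt2* and *Nr3c1*. They were found by symbol, 10 of 55487 genes in the table, and all 10 were among the 18859 genes with enough signal to test, which had at least 1 CPM (reads scaled to a common library total) in no fewer than 3 mice. The mice were WT male C57BL/6 animals of 2 months, kept on a light cycle in which zeitgeber time 1 (ZT1) is morning and ZT13 is evening. LPS, a bacterial endotoxin, was given i.p. at 2 mg/kg, or PBS was given as the control, in 2 injections on consecutive days at the same time of day (TOD), and cortex was taken on the day after, about 24 hours after the last injection. The 4 groups were ZT1 PBS (n = 3), ZT1 LPS (n = 5), ZT13 PBS (n = 3) and ZT13 LPS (n = 5). Mice of all groups had been injected on both days, so no group was without handling, and the injection time and the collection time changed together.

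Glucocorticoids, of which corticosterone is the main one in mice, bind the receptor encoded by *Nr3c1*. The bound receptor enters the nucleus and acts on genes such as *Fkbp5*, whose product holds the receptor in a state of low affinity and so closes a feedback loop. Corticosterone is known to rise toward the onset of darkness in mice and also during systemic inflammation, but no hormone values were analysed here. In cortex these genes are read in many cell types, and in bulk tissue fewer cells of a type and less RNA per cell cannot be told apart.

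The sequences in front of transcript starts were searched for letters that the receptor and the metal-responsive factor MTF-1 are known to bind. RefSeq windows (GRCm38.p6) were at hand for 8 of the 10 genes, all but *Zbtb16* and *Nr3c1*, with 16 windows in all for the 8 because several genes have more than 1 start. Each window held the 250 bases before a start, and both strands were read. A full palindromic glucocorticoid response element, which is AGAACA, 3 bases of any kind and TGTTCT, was in 3 of 32851 windows (0.00913%), and 1 of these 3 lies before a start of *Sgk1*, a kinase gene that controls sodium channels and other transporters. That window is at chr10:21993640-21993889 on the plus strand and is shown because it is the only member window with the full element. The capitals mark the element, which begins at base -189 relative to the start at 21993890:
Sgk1: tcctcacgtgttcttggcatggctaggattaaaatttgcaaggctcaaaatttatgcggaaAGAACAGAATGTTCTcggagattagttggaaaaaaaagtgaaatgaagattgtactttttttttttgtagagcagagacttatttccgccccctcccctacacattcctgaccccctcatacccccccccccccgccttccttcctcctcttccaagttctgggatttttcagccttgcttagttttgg
The arm AGAACA alone was in 16.1% of windows. It was found 3 times in this *Sgk1* window, 2 of them within the full element, and 3 or more matches were in 0.189% of windows. Of the other 15 member windows, 2 more of *Sgk1* and 1 of *Tsc22d3* held 1 arm each. No arm was in the windows of *Hif3a*, *Fkbp5*, *Pdk4*, *Cdkn1a*, *Mt1* or *Mt2*, which says only that these letters are not in the 250 bases before those starts.

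*Mt1* and *Mt2* encode metallothioneins, small cysteine-rich proteins that hold zinc and copper, and their genes lie in tandem on chromosome 8 with 5513 bases between them. The windows before their starts, at chr8:94178839-94179088 and chr8:94172368-94172617 (both plus strand), are shown because this pair moved together more closely than any other 2 members. The capitals mark the core of the metal response element, TGCACNC or TGCGCNC on either strand:
Mt1: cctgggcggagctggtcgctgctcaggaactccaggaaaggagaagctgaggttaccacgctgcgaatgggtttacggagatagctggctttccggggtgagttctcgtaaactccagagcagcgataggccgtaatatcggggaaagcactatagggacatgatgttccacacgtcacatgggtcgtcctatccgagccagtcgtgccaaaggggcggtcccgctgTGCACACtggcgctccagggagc
Mt2: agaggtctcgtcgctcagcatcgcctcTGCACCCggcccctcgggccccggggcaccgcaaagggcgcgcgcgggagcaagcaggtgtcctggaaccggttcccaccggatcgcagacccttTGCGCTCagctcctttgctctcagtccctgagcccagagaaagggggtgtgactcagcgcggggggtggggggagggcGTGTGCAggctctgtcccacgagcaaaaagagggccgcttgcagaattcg
The core was in 21.4% of all windows, once for *Mt1* and once for *Hif3a*. The 3 cores of *Mt2* begin at bases -223, -128 and -50 relative to its start, and 3 or more cores were in 1.26% of windows. Bases after these starts were not searched, and the *Mt2* start used, 94172618, lies before the annotated start of the gene at 94172664. The counts of cores therefore do not compare the whole promoters of the 2 genes. A match is a description of letters and not a measured binding site.

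The samples were grouped by title, because the separate treatment field contradicts the titles of 12 of the 16 samples. The data matched the titles: *Gfap*, the astrocyte filament gene, lay between 110.5 and 122.8 CPM in the 6 PBS mice and between 572.1 and 1134 CPM in the 10 LPS mice. *Lcn2* and *Saa3*, acute-phase genes, were at no more than 0.197 and 0.342 CPM in PBS mice and at no less than 107.0 and 39.2 CPM in LPS mice. Of the clock genes in PBS mice, *Arntl* was 38.6 to 39.4 CPM at ZT1 and 23.95 to 27.3 at ZT13, and *Dbp* was 37.3 to 55.5 CPM at ZT1 and 91.5 to 110.5 at ZT13. *Per2* was 52.0 to 67.5 CPM at ZT1 and 71.5 to 102.4 CPM at ZT13 in those mice. In LPS mice *Arntl* overlapped between the times (29.9 to 37.2 CPM at ZT1, 27.8 to 32.8 CPM at ZT13). Of 10 clock genes 0 passed a limma adjusted p of 0.05 between the times in LPS mice, where 0.0212% of all genes did. In PBS mice 5 of the 10 passed as higher at ZT13 and 1 as lower, where 0.52% of all genes passed. In LPS mice the time labels could therefore be checked only in part. The 7 neuronal markers summed to 4257 to 4960 CPM and 6 astrocyte markers to 4946 to 5481 CPM over the 16 libraries, most of the latter from *Slc1a2*. The 8 markers of choroid plexus and meninges summed to 57.3 to 1008 CPM and varied widely within each group, and their part in the results was not tested. The libraries held 20251840 to 29112758 reads on genes. The labels name no cages or batches, but the library name of ZT13 PBS replicate 1 has another suffix than the other 15, which they do not explain. The p-values measure the spread between these mice.

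Levels between genes were compared as CPM per kilobase of exon. In ZT1 PBS cortex *Mt1* was the highest at 63.9 ± 1.98 (SD, n = 3) and *Mt2* next at 49.9 ± 3.52. *Zbtb16*, a zinc finger repressor gene, was at 18.8 ± 1.56 CPM per kilobase and *Nr3c1* at 12.98 ± 0.468. *Sgk1* (8.13 ± 1.75) and *Tsc22d3* (7.96 ± 1.19) did not differ beyond their spread in CPM per kilobase. Below them came *Cdkn1a* at 3.65 ± 0.748, *Fkbp5* at 2.48 ± 0.152 and *Pdk4* at 1.95 ± 0.0764 CPM per kilobase. *Hif3a* was the lowest of the 10 at 0.581 ± 0.0201 CPM per kilobase, which rested on 76 to 94 reads per mouse.

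**Figure D1:**
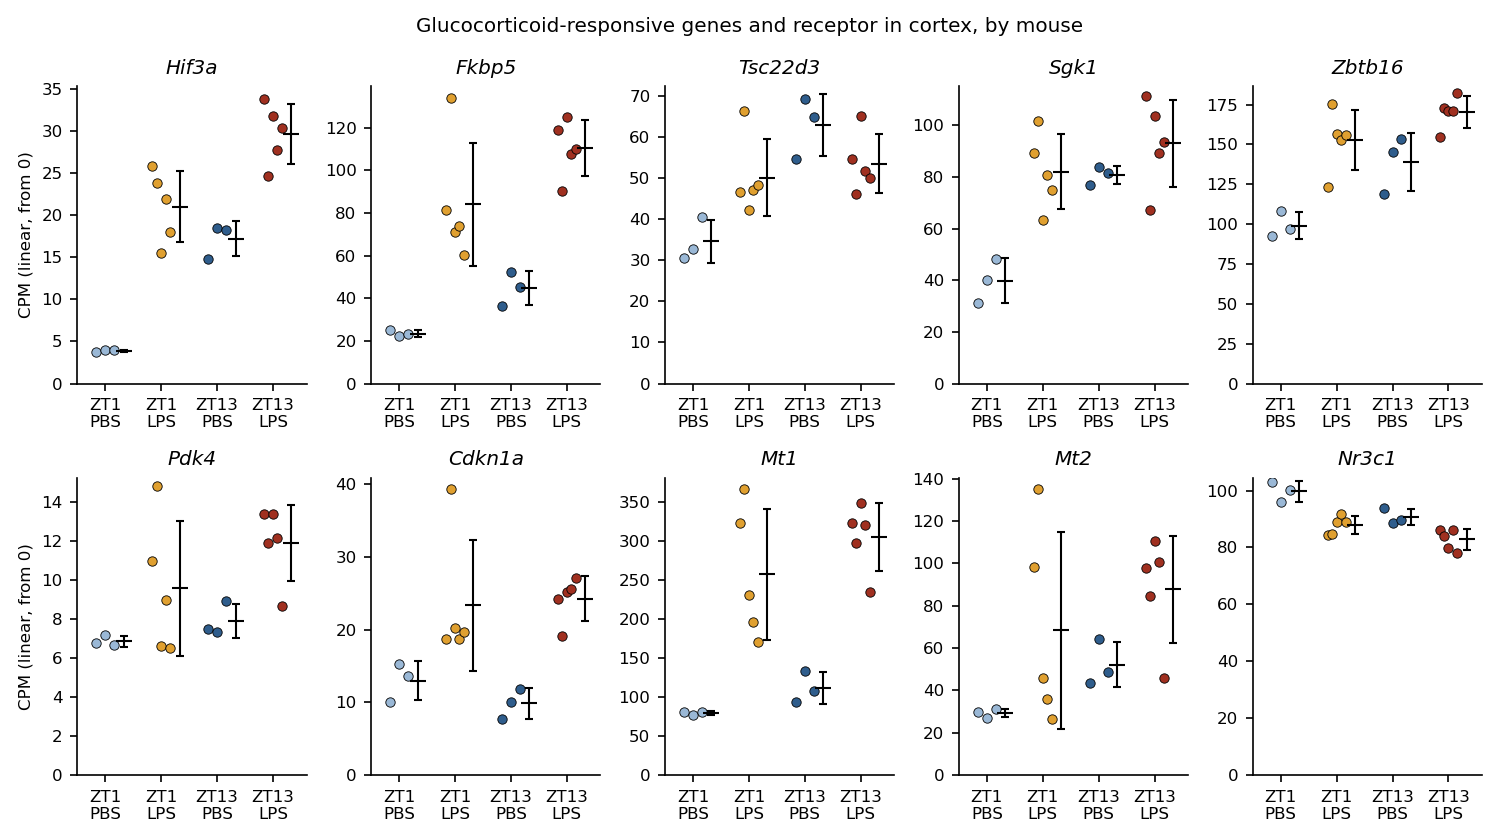
CPM of the 10 genes in each mouse, on linear axes from 0, with the 4 groups along each horizontal axis; points are mice, and the dash with bars at the right of each group is the mean ± SD (n = 3 for PBS, n = 5 for LPS). The 3 ZT1 PBS mice lie below all other mice for *Hif3a*, *Fkbp5* and *Sgk1*, among others, and 1 ZT1 LPS mouse (replicate 2) stands at the top of its group for 8 of the 9 target genes.

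*Hif3a* encodes HIF-3α, a relative of the hypoxia-inducible factors, some forms of which restrain HIF activity, and it lies on the minus strand of chromosome 7 from 17031507 to 17062427 (GRCm38). Its level was 3.75, 3.9996 and 3.96 CPM in the ZT1 PBS mice. In the ZT1 LPS mice it was 25.9, 23.9, 15.5, 21.9 and 18.0 CPM. In the ZT13 PBS mice it was 14.8, 18.5 and 18.3 CPM. The ZT1 PBS mice were thus far below both other groups, with no overlap, and the evening PBS mice stood near the lower morning LPS mice. The ZT13 LPS mice had the highest *Hif3a*, at 33.9, 24.7, 31.9, 27.8 and 30.4 CPM. The ratio of mean CPM was 5.39 for LPS over PBS at ZT1 and 1.73 at ZT13, and 4.41 for ZT13 over ZT1 in PBS mice against 1.41 in LPS mice.

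*Fkbp5*, on the minus strand of chromosome 17 from 28399094 to 28517527, showed the same order of groups. It was 25.0, 22.1 and 23.3 CPM in ZT1 PBS mice and 36.6, 52.5 and 45.4 CPM in ZT13 PBS mice. In ZT1 LPS mice it was 81.6, 134.0, 71.1, 73.9 and 60.2 CPM. In ZT13 LPS mice it was 118.7, 90.5, 125.2, 107.8 and 110.2 CPM. Every LPS mouse was above every PBS mouse of either time, and replicate 2 of ZT1 LPS was the highest of all 16 mice.

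*Sgk1*, on the plus strand of chromosome 10 from 21882184 to 21999903, was low only in ZT1 PBS mice, at 31.2, 40.2 and 48.3 CPM. In ZT13 PBS mice it was 76.8, 83.8 and 81.6 CPM, within the span of the LPS mice. Those were 89.4, 101.6, 63.5, 80.8 and 74.9 CPM at ZT1 and 111.3, 67.1, 103.8, 89.2 and 93.7 CPM at ZT13. *Sgk1* thus stood apart in the morning controls, and the other 3 groups overlapped.

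*Tsc22d3* encodes GILZ, a leucine zipper protein that restrains NF-κB and AP-1, and lies on the minus strand of the X chromosome from 140539528 to 140600659. Its CPM was 30.7, 32.6 and 40.4 in ZT1 PBS mice and 54.7, 69.1 and 65.0 in ZT13 PBS mice. In ZT1 LPS mice it was 46.6, 66.3, 42.3, 47.1 and 48.3 CPM. In ZT13 LPS mice it was 54.7, 46.1, 65.1, 51.7 and 49.9 CPM. Here the highest group mean was that of the evening PBS mice (62.9 ± 7.44 CPM), and the LPS groups lay at 50.1 ± 9.33 and 53.5 ± 7.18 CPM.

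*Zbtb16* (chromosome 9, 48654297 to 48836222, minus strand) had group means of 99.1 ± 8.25 CPM in ZT1 PBS, 152.8 ± 18.8 in ZT1 LPS, 139.1 ± 18.1 in ZT13 PBS and 170.4 ± 10.01 in ZT13 LPS mice. The ZT1 PBS mice, at 92.3 to 108.3 CPM, lay below every other mouse. *Pdk4* (chromosome 6, 5483351 to 5496309, minus strand), a kinase gene that slows glucose oxidation in fasting, was 6.65 to 7.16 CPM in ZT1 PBS and 7.31 to 8.91 CPM in ZT13 PBS mice. It was 10.96, 14.8, 6.60, 8.96 and 6.53 CPM in ZT1 LPS mice, a group in which 2 mice lay at the level of the controls. *Pdk4* was 8.64 to 13.4 CPM in ZT13 LPS mice, of which 1 lay within the PBS range.

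*Cdkn1a* (chromosome 17, 29090976 to 29100727, plus strand) encodes p21, an inhibitor of the cell cycle that p53 also induces. It was 10.04 to 15.2 CPM in ZT1 PBS and 7.67 to 11.8 CPM in ZT13 PBS mice. In ZT1 LPS mice it was 18.8, 39.3, 20.2, 18.7 and 19.6 CPM, and in ZT13 LPS mice 19.1 to 27.1 CPM. All LPS mice were above all PBS mice, and the 1 value of 39.3 CPM carried the spread of its group. *Hif3a*, *Fkbp5*, *Cdkn1a* and *Mt2* each overlap at least 1 other annotated gene, and the strand setting of the counting is not given in the sources used here, so reads of those neighbours could not be told apart.

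*Mt1* (chromosome 8, 94179082 to 94180327) was 81.2, 76.8 and 80.9 CPM in ZT1 PBS and 93.5, 133.3 and 108.2 CPM in ZT13 PBS mice. It was 322.3, 366.5, 231.1, 195.3 and 170.3 CPM in ZT1 LPS mice and 322.9, 297.1, 348.8, 320.6 and 234.3 CPM in ZT13 LPS mice. Each LPS mouse was above each PBS mouse for *Mt1*. *Mt2* (chromosome 8, 94172664 to 94173568) was 29.8, 27.1 and 31.1 CPM in ZT1 PBS and 43.6, 64.2 and 48.5 CPM in ZT13 PBS mice. In ZT1 LPS mice it was 98.3, 135.0, 45.9, 36.0 and 26.4 CPM, a span that reached below the lowest control. In ZT13 LPS mice it was 97.6, 84.6, 110.7, 100.5 and 45.7 CPM, with replicate 5 inside the PBS range. Nearly all *Mt2* values were not whole numbers of reads. The ratio of *Mt1* CPM to *Mt2* CPM was 2.60 to 2.84 in ZT1 PBS, 2.08 to 2.23 in ZT13 PBS, 2.72 to 6.46 in ZT1 LPS and 3.15 to 5.13 in ZT13 LPS mice. The paired genes therefore kept a narrow ratio in PBS mice and a wide one after LPS, widest in the LPS mice with the least *Mt2*.

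*Nr3c1* on chromosome 18 varied least, at 95.9 to 103.1 CPM in ZT1 PBS, 84.3 to 91.9 in ZT1 LPS, 88.7 to 93.8 in ZT13 PBS and 78.0 to 86.2 in ZT13 LPS mice. The LPS mice were below the PBS mice at each time, with no overlap.

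The first comparison asked how the genes respond to LPS in the morning. Of the 9 targets, 7 were higher in ZT1 LPS than in ZT1 PBS mice by limma at an adjusted p under 0.05 (*Hif3a*, *Fkbp5*, *Mt1*, *Sgk1*, *Cdkn1a*, *Zbtb16* and *Tsc22d3*), and *Nr3c1* was lower. That is 8 of 10 genes, where 16.2% of all 18859 genes were called, 11.1% higher and 5.15% lower. Without adjustment 8 members and 30.3% of genes had p under 0.05. These differences are on the log2(CPM + 0.5) scale with standard errors. *Hif3a* rose by 2.27 ± 0.14 (limma adjusted p = 2.4e-06), *Fkbp5* by 1.77 ± 0.19 (limma adjusted p = 0.00012) and *Mt1* by 1.62 ± 0.21 (limma adjusted p = 0.00035). *Sgk1* rose by 1.04 ± 0.15, *Cdkn1a* by 0.78 ± 0.22, *Zbtb16* by 0.62 ± 0.09 and *Tsc22d3* by 0.52 ± 0.13, with limma adjusted p between 0.00092 and 0.036. *Nr3c1* fell by 0.18 on the log2 scale (standard error 0.04, limma adjusted p = 0.016). *Mt2* had a difference of 0.94 ± 0.43 (limma adjusted p = 0.17) and *Pdk4* one of 0.39 ± 0.22 (limma adjusted p = 0.27), and for both the groups overlapped. Over the 9 targets the median difference was 0.94, beside 0.04 over all genes tested. Groups did not overlap for the 8 genes called, against 15.9% of all genes for higher and 8.41% for lower. In a two-sided exact permutation test of mean CPM each of the 8 had p = 0.0357, the smallest that 5 mice against 3 allow. Without ZT1 PBS replicate 1 the count of called members was 5, since *Tsc22d3*, *Cdkn1a* and *Nr3c1* no longer passed.

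In the evening comparison 7 targets were again higher after LPS, and *Nr3c1* was lower, 8 of 10 genes against 28.6% of all genes (19.2% higher, 9.4% lower). Without adjustment 9 members and 38.3% of genes had p under 0.05. Groups did not overlap for 5 members with higher values and 1 with lower, against 20.9% and 10.3% of all genes. *Pdk4* and *Mt2* passed at ZT13 and not at ZT1, and *Sgk1* and *Tsc22d3* passed at ZT1 and not at ZT13. *Mt1* rose by 1.45 ± 0.12 (limma adjusted p = 6.3e-07), *Fkbp5* by 1.30 ± 0.11 (limma adjusted p = 7.7e-07) and *Cdkn1a* by 1.27 ± 0.13 (limma adjusted p = 4.6e-06). *Hif3a* rose by 0.77 ± 0.10 (limma adjusted p = 4.8e-05). *Mt2* rose by 0.70 ± 0.22, *Pdk4* by 0.55 ± 0.13 and *Zbtb16* by 0.30 ± 0.07, with limma adjusted p between 0.0051 and 0.030. *Nr3c1* fell by 0.13 on the log2 scale (standard error 0.04, limma adjusted p = 0.039). *Sgk1* had a difference of 0.18 (95% interval -0.07 to 0.44, limma adjusted p = 0.28) and *Tsc22d3* one of -0.24 (95% interval -0.44 to -0.03, limma adjusted p = 0.087). The median over the 9 targets was 0.70, beside 0.05 over all genes. Both *Mt2* and *Nr3c1* lost their calls in most fits that left out 1 mouse, and each kept it in 2 of 8. The share of all calls that were higher depended on the scaling of the libraries, at 68.2% (ZT1) and 67.2% (ZT13) by CPM and 54.1% and 51.0% with median-of-ratios factors. With quantile normalization it was 51.1% and 44.99%, and the median of all genes at ZT13 went from 0.05 to -0.06. The direction of the 8 members called at each time was the same under each scaling. *Tsc22d3* was called in addition at ZT13, as lower, with median-of-ratios factors and with quantile normalization. It was also called as lower in 2 of 8 fits at ZT13 that left out 1 mouse.

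**Figure D2:**
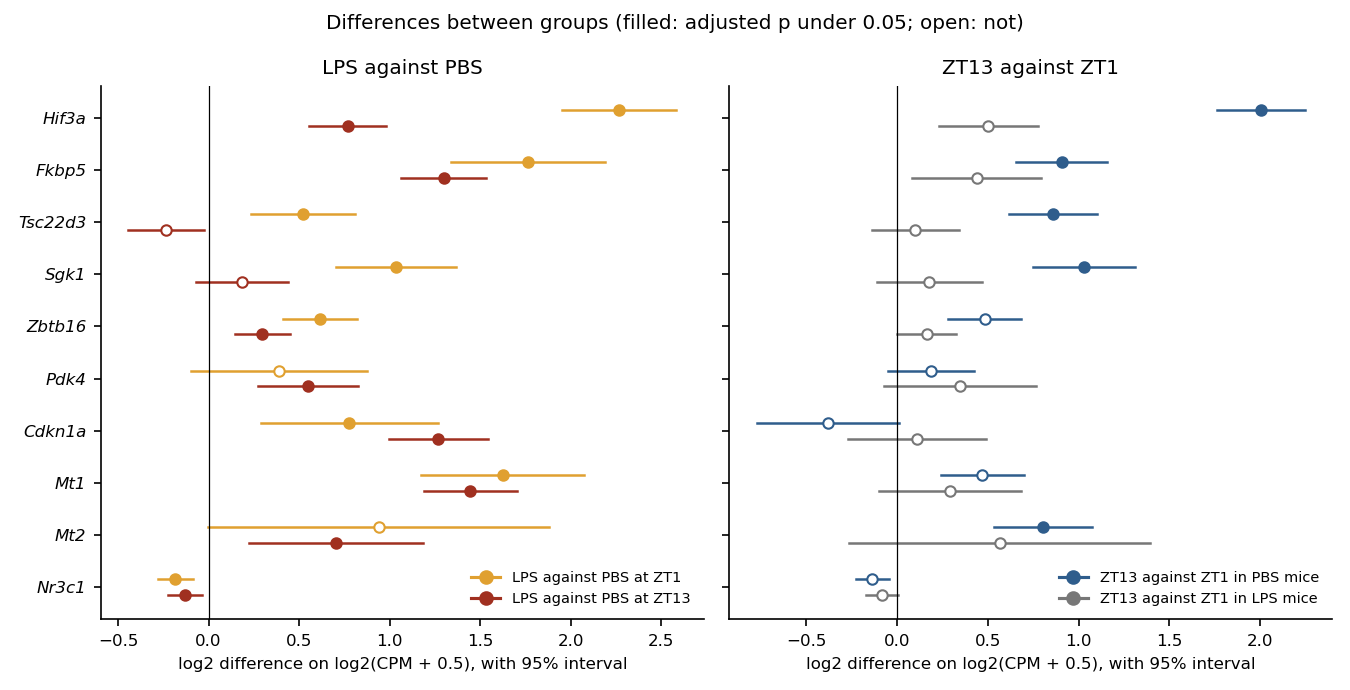
Differences between groups for each gene on the log2(CPM + 0.5) scale, with 95% intervals from limma, for LPS against PBS at ZT1 and ZT13 (left) and for ZT13 against ZT1 in PBS and in LPS mice (right); filled circles passed an adjusted p of 0.05 and open circles did not. *Hif3a* has 2.27 at ZT1 and 0.77 at ZT13 on the left, and 2.00 in PBS mice and 0.50 in LPS mice on the right.

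ZT13 was then set against ZT1 in PBS mice, injected controls in which the times of injection and collection differ together. Here 5 targets were higher in the evening and none lower, where 0.52% of all genes were called and 0.302% higher. *Hif3a* rose by 2.00 ± 0.11 (limma adjusted p = 0.00017), the smallest p of all 18859 genes. *Sgk1* rose by 1.03 ± 0.13 (limma adjusted p = 0.011), *Fkbp5* by 0.91 ± 0.11 (limma adjusted p = 0.012) and *Tsc22d3* by 0.86 ± 0.11 (limma adjusted p = 0.013). *Mt2* rose by 0.80 ± 0.12 (limma adjusted p = 0.031). *Zbtb16* (0.48 ± 0.09, limma adjusted p = 0.059) and *Mt1* (0.47 ± 0.10, limma adjusted p = 0.094) did not pass, although every evening mouse was above every morning mouse. *Pdk4* had 0.19 ± 0.11, *Cdkn1a* -0.38 ± 0.17 and *Nr3c1* -0.14 ± 0.04, with limma adjusted p from 0.20 to 0.49. In all, 8 members had no overlap with higher evening values and 1 (*Nr3c1*) with lower, against 9.52% and 9.21% of all genes. The median over the 9 targets was 0.80 and that over all genes was -0.00039. With 3 mice against 3 the exact permutation test cannot go below p = 0.10, which the 9 genes without overlap reached. Only *Hif3a* passed in every fit that left out 1 mouse: the count of called members was 1 without ZT1 PBS replicate 2, 2 without ZT1 PBS replicate 1, 3 without ZT1 PBS replicate 3 or ZT13 PBS replicate 2, and 7 without ZT13 PBS replicate 1. Calls over all genes, 98 with all 6 mice, also fell in these fits, to 12, 25, 23, 14 and 53 in the same order.

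Between ZT1 and ZT13 in LPS mice no member passed at a limma adjusted p of 0.05, and 3 had an unadjusted p under 0.05, where 0.0212% of all genes were called and 10.6% had an unadjusted p under 0.05. The 3 were *Hif3a* at 0.50 ± 0.13 (limma adjusted p = 0.15), *Fkbp5* at 0.44 ± 0.17 (limma adjusted p = 0.35) and *Zbtb16* at 0.16 ± 0.08 (limma adjusted p = 0.46). All 9 targets had positive differences, as did 10482 of all 18859 genes. The median over the targets was 0.29, beside 0.01 over all genes, and *Sgk1* (0.18) and *Tsc22d3* (0.10) were among the smaller. *Hif3a* had a two-sided exact permutation p of 0.0159, and all but 1 of the 5 evening mice were above all 5 morning mice. No member was without overlap, against 1.55% of all genes for higher and 0.408% for lower. Without ZT1 LPS replicate 1 *Hif3a* passed (limma adjusted p = 0.031), in a fit that called 345 genes in place of 4. Without ZT1 LPS replicate 2 *Fkbp5* passed (limma adjusted p = 0.033), in a fit that called 20 genes.

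The TOD by treatment interaction, the LPS difference at ZT13 minus that at ZT1 over all 16 mice, was past the threshold for 1 member, *Hif3a*, where 0.159% of all genes were called and 0.0371% in the negative direction. Its value was -1.50 ± 0.19 (limma adjusted p = 0.0026), and the call held in all 16 fits without 1 mouse. In an ordinary 2-way linear model, without limma's sharing of variance between genes, its adjusted p was 0.055. *Sgk1* had -0.85 ± 0.22 (limma adjusted p = 0.16), *Tsc22d3* -0.76 ± 0.18 (limma adjusted p = 0.13) and *Zbtb16* -0.32 ± 0.13 (limma adjusted p = 0.45), each with an unadjusted p under 0.05, as were 9.25% of all genes. For *Sgk1* and *Tsc22d3*, then, the passing of the LPS test at ZT1 alone is no tested difference between the times. The same holds for *Pdk4* and *Mt2*, which passed at ZT13 alone. *Fkbp5* had -0.47 ± 0.25, *Mt1* -0.18 ± 0.27 and *Mt2* -0.24 ± 0.55, while *Pdk4* (0.16 ± 0.28), *Cdkn1a* (0.49 ± 0.29) and *Nr3c1* (0.05 ± 0.06) were positive, with limma adjusted p from 0.60 to 0.94. Of the 9 targets 7 had a negative interaction and 2 a positive one, and of all 18859 genes 10178 had a positive one. The median over the targets was -0.32, beside 0.01 over all genes. These signs hold on the log2 scale. In mean CPM the LPS difference was larger at ZT13 than at ZT1 for *Fkbp5* (65.6 and 60.7) and *Mt1* (193.1 and 177.5). It was smaller at ZT13 for the other targets with a negative interaction, *Hif3a* (12.5 and 17.1) among them.

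**Figure D3:**
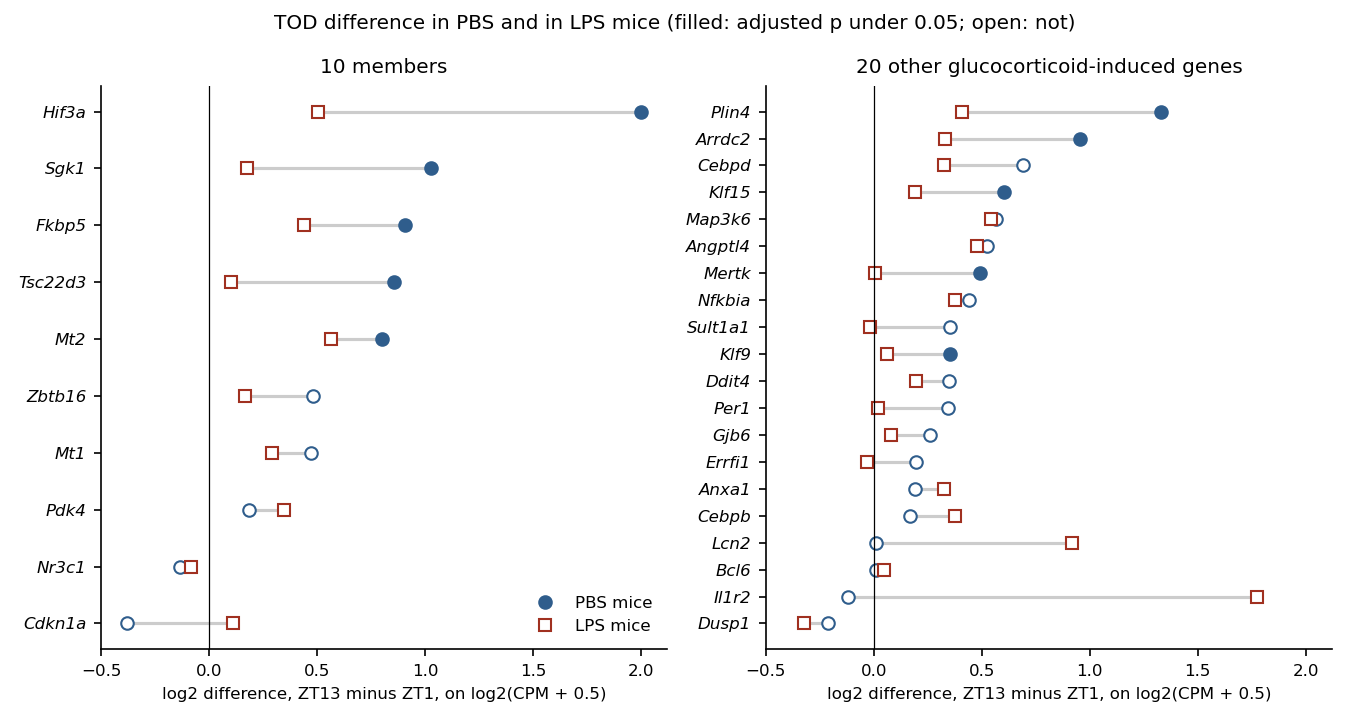
Difference between ZT13 and ZT1 on the log2(CPM + 0.5) scale in PBS mice (blue circles) and LPS mice (red squares) for the 10 members (left) and 20 other glucocorticoid-induced genes (right), ordered by the PBS value; filled symbols passed an adjusted p of 0.05 and open ones did not. *Hif3a* has the widest gap among the members (2.00 and 0.50), and *Plin4* (1.33 and 0.41) and *Arrdc2* (0.96 and 0.33) have wide gaps in the same direction on the right, while *Il1r2*, at 0.139 to 0.295 CPM in PBS mice and so near the limit of detection, has the reverse.

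A list of 20 other genes known to be induced by glucocorticoids was read beside the members. Like the members, it was chosen with earlier results of these data known, so its counts are no independent support. The shares of all genes called were 16.2% for LPS at ZT1, 28.6% for LPS at ZT13 and 0.52% between the times in PBS mice. At ZT1 17 were higher after LPS and 1 lower (median 0.92), and at ZT13 13 were higher and 2 lower (median 0.69). The leading genes were *Lcn2*, whose PBS levels were at the limit of detection, *Plin4*, a lipid droplet coat gene that rose by 2.35 ± 0.24 at ZT1 (limma adjusted p = 8.0e-05), and *Angptl4*, an inhibitor of lipoprotein lipase that rose by 2.31 ± 0.21 at ZT1 (limma adjusted p = 2.7e-05). At ZT13 *Angptl4* rose by 2.27 ± 0.18 (limma adjusted p = 5.2e-07) and *Il1r2*, a decoy receptor for IL-1, passed (limma adjusted p = 7.9e-07). *Il1r2* was 0.139 to 0.190 CPM in ZT13 PBS mice, at or near the 3 reads taken as the limit of detection, and 3.49 to 11.4 CPM in ZT13 LPS mice. The genes that fell, named after their values were seen, were *Dusp1* at both times (by 0.54 and 0.65 on the log2 scale) and *Mertk* at ZT13 (by 0.24). In PBS mice 5 of the 20 were higher at ZT13 and none lower (median 0.35), led by *Plin4* (1.33 ± 0.13, limma adjusted p = 0.0034), *Arrdc2* (0.96 ± 0.10, limma adjusted p = 0.0063) and *Klf15* (0.60 ± 0.07, limma adjusted p = 0.011). In LPS mice none of the 20 passed (median 0.26), nor did any in the interaction (median -0.17). Several of these genes, *Lcn2* and *Il1r2* among them, are also raised by inflammatory signals and by cells that enter from blood.

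Partners of the receptor were read next. Of 13 chaperones, cofactors and genes of corticosteroid handling, 2 were higher and 1 lower after LPS at ZT1, 2 were higher and 4 lower at ZT13 (16.2% and 28.6% of all genes were called at these times), and none passed in PBS or LPS mice between the times or in the interaction. *Hsd11b1*, whose enzyme regenerates active glucocorticoid in cells, rose by 0.57 ± 0.10 at ZT1 (limma adjusted p = 0.0031) and 0.55 ± 0.11 at ZT13 (limma adjusted p = 0.0015). *Fkbp4*, the counterpart of *Fkbp5* in the receptor complex, fell by 0.24 and 0.17 on the log2 scale (limma adjusted p = 0.027 and 0.020). *Abcb1a*, a transporter gene that exports steroids at the blood-brain barrier, rose by 0.37 ± 0.08 at ZT13 (limma adjusted p = 0.0030), and *Nrip1*, a corepressor gene, by 0.16 ± 0.04 at ZT1 (limma adjusted p = 0.023).

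Other inputs known for single members were read in the same way. Of all genes, 11.1% were called higher and 5.15% lower after LPS at ZT1, and 19.2% and 9.4% at ZT13. In PBS mice 0.302% were higher and 0.217% lower at ZT13. At ZT1, 1 gene called higher in a list of 8 or 9 is close to the share of all genes. Of 16 hypoxia response genes, the pathway of the *Hif3a* relatives, 3 rose and 3 fell after LPS at ZT1 (median 0.07), 7 rose and 4 fell at ZT13 (median 0.09), and in PBS mice 1 was higher at ZT13, the glucose transporter gene *Slc2a1* (0.49 ± 0.08, limma adjusted p = 0.039). None of the 16 passed in the interaction. The hexokinase gene *Hk2* led at both times (1.14 ± 0.08 and 1.27 ± 0.09, limma adjusted p = 4.8e-06 and 1.8e-07). Of 8 metal response and zinc transport genes 1 rose and 1 fell at ZT1 and 2 rose and 2 fell at ZT13, led by the zinc importer gene *Slc39a14* (0.54 ± 0.08 and 0.78 ± 0.06, limma adjusted p = 0.0014 and 4.6e-07), and none passed in the other comparisons. Of 9 tested p53 targets, read beside *Cdkn1a*, 1 rose at ZT1 (*Sesn1*, 0.49 ± 0.09, limma adjusted p = 0.0041), and 2 rose and 1 fell at ZT13, with none in the other comparisons. Of 13 genes of fasting and fatty acid oxidation, read beside *Pdk4*, 5 rose at ZT1, and 8 rose and 2 fell at ZT13. None of these 13 passed in the other comparisons. Of 8 IL-6 and STAT3 targets 7 rose at each time (medians 1.58 and 2.26), led by the protease inhibitor gene *Serpina3n* (5.29 and 5.93), and none passed in the other comparisons.

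Some markers of cell types also moved with LPS. Of all genes, 11.1% passed as higher and 5.15% as lower at ZT1, and 19.2% and 9.4% at ZT13. The 6 neutrophil markers summed to 0.416 to 1.08 CPM in PBS mice, 8.47 to 42.9 CPM in ZT1 LPS and 28.1 to 74.4 CPM in ZT13 LPS mice, with none of the 6 at 0 in every mouse of a group. The 7 endothelial markers summed to 141 to 143 CPM in ZT1 PBS, 96.3 to 114 in ZT13 PBS, 192 to 237 in ZT1 LPS and 236 to 258 in ZT13 LPS mice, and 4 of the 7 had a positive interaction by limma. A positive interaction was called for 0.122% of all genes. The 6 microglial markers summed to 169 to 191 CPM in PBS and 193 to 315 CPM in LPS mice, and 5 of them passed as higher and 1 as lower at each time. The lower one, *P2ry12*, was 10.9 to 13.02 CPM in PBS mice and 3.52 to 6.98 CPM in LPS mice. Of the 6 astrocyte markers 3 passed as higher at ZT1, and 3 as higher and 1 as lower at ZT13. *Aqp4* (at most 67.5 CPM in PBS and at least 74.9 in LPS mice), *Aldh1l1* (at most 57.3 and at least 65.0) and *Slc1a3* (at most 326.8 and at least 348.1) did not overlap between PBS and LPS mice. These 4 markers were named after their values were seen. The sum of the 6 astrocyte markers overlapped, at 5023 to 5466 CPM in PBS mice and 4946 to 5481 CPM in LPS mice. The part of these cells in the differences of the members was not tested. In PBS mice the endothelial sum was lower at ZT13 than at ZT1 without overlap (2 of the 7 markers passed as lower, as did 0.217% of all genes).

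The genes whose log2(CPM + 0.5) followed *Hif3a* most closely over the 16 mice, among 18858 others, were *Rnf2* (Pearson r = 0.96), *Klf15* (0.95), *Plin4* (0.95), *Smim3* (0.94) and *Nde1* (0.94). For *Fkbp5* they were *Plin4* (r = 0.99), *Nde1* (0.98), *Eef2k* (0.98), *Aff1* (0.97) and *Usp54* (0.97). These r are descriptions over 4 groups whose means differ, in libraries scaled by the same totals. *Plin4* was 10.6 ± 0.640 CPM in ZT1 PBS, 59.2 ± 24.7 in ZT1 LPS, 27.6 ± 5.17 in ZT13 PBS and 74.4 ± 7.37 in ZT13 LPS mice, the same order of means as *Hif3a* and *Fkbp5*. *Klf15*, a transcription factor gene, was 22.1 ± 0.720, 36.3 ± 4.48, 33.9 ± 3.37 and 41.3 ± 3.02 CPM in the same groups. Over the same 16 mice *Hif3a* had r = 0.94 with *Sgk1*, 0.92 with *Fkbp5* and -0.88 with *Nr3c1*, and the lowest positive r with *Cdkn1a* (0.56).

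**Figure D4:**
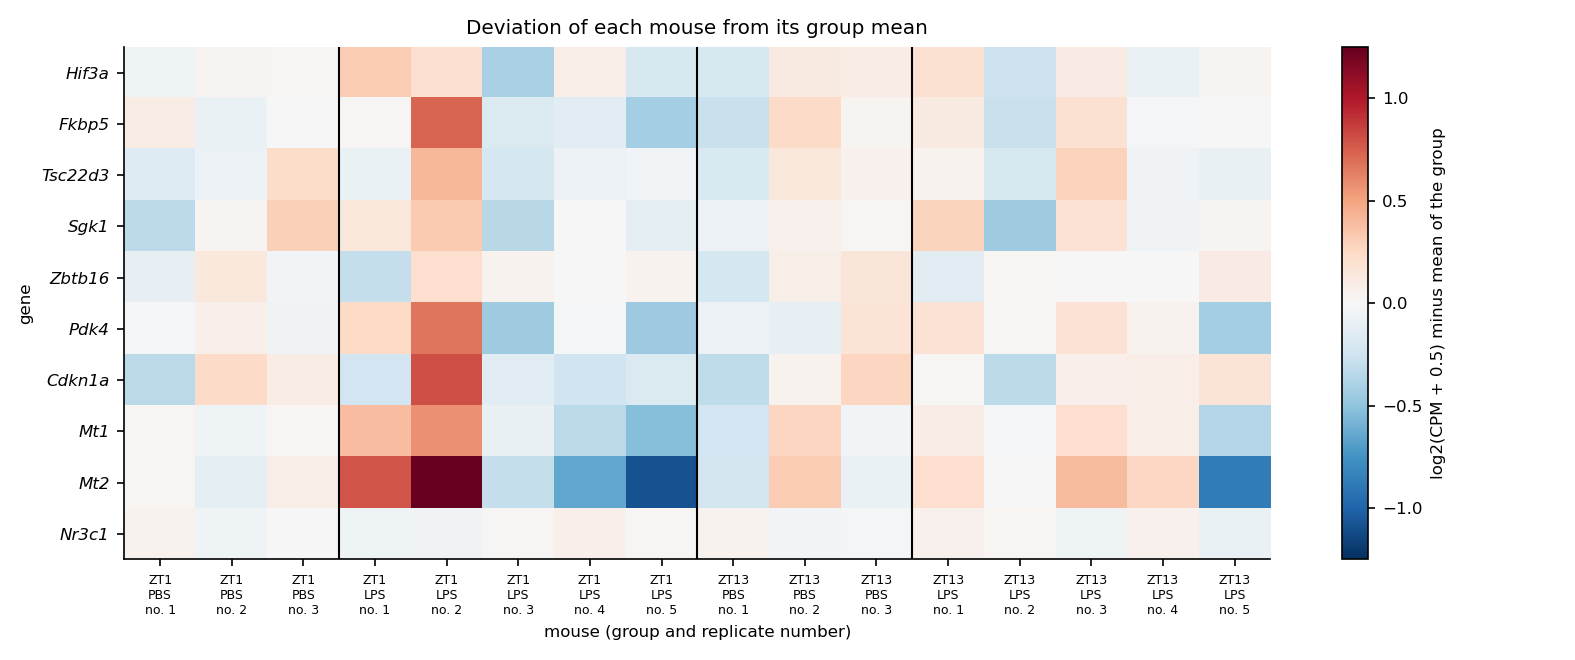
Deviation of each mouse from the mean of its own group on the log2(CPM + 0.5) scale, with genes in rows and the 16 mice in columns; red is above and blue below the group mean, and black lines part the groups. ZT1 LPS replicate 2 is above its group mean for all 9 targets and reaches 1.24 for *Mt2*, while *Nr3c1* stays close to its group means in all mice.

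Mice of the same group also differed in these genes together. Deviations from the 4 group means were correlated over the 16 mice for the 45 pairs of members, with a two-sided permutation test of 100000 resamples within groups and adjustment over the 45 pairs. By Pearson's r 7 pairs passed, all positive and all between targets, and 33 of the 36 pairs of targets had a positive r (median 0.58). Pairs of other genes were not tested. These counts therefore have no share over all genes beside them, and do not show a trait particular to the members. *Mt1* and *Mt2* had r = 0.98 (permutation p = 2.0e-05, adjusted p = 0.00090) and Spearman's rho = 0.99 (permutation p = 4.0e-05, adjusted p = 0.0018). *Hif3a* and *Sgk1* had r = 0.79 (permutation p = 0.00012, adjusted p = 0.0027) and rho = 0.82 (permutation p = 0.00026, adjusted p = 0.0059). Without the 2 mice farthest from the median of the first gene these r were 0.97 and 0.65, and both pairs passed in all 16 repeats that left out 1 mouse. *Tsc22d3* and *Sgk1* had r = 0.79 (permutation p = 0.0024, adjusted p = 0.031) and rho = 0.79 (permutation p = 0.0014, adjusted p = 0.019), and r = 0.77 without the 2 farthest mice. *Fkbp5* and *Mt1* had r = 0.80 (permutation p = 0.0028, adjusted p = 0.031), rho = 0.77 (permutation p = 0.0040, adjusted p = 0.034) and r = 0.58 without the 2 farthest mice. *Fkbp5* and *Mt2* had r = 0.76 (permutation p = 0.0063, adjusted p = 0.040) and rho = 0.74 (permutation p = 0.0065, adjusted p = 0.042), but r = 0.44 without those 2. *Fkbp5* with *Tsc22d3* and *Pdk4* with *Mt2* passed by Pearson's r and not by Spearman's rho. *Hif3a* with *Fkbp5* (rho = 0.80, permutation adjusted p = 0.019) and *Fkbp5* with *Sgk1* (rho = 0.71, permutation adjusted p = 0.034) passed by Spearman's rho and not by Pearson's r. The count of pairs rests on single mice, with 2 pairs without ZT1 LPS replicate 2, ZT1 LPS replicate 4 or ZT13 PBS replicate 1, and 3 without ZT1 LPS replicate 5, ZT13 LPS replicate 1 or ZT13 LPS replicate 3. It was 4 without ZT13 LPS replicate 4.

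ZT1 LPS replicate 2 had the highest value of its group for 8 of the 9 targets, all but *Hif3a*. Its neutrophil markers summed to 9.62 CPM, when the group spanned 8.47 to 42.9, and its 4 LPS marker genes to 828.7 CPM in a group of 815 to 1538. Its choroid plexus and meninges markers, at 86.3 CPM, were the lowest of its group, as were its microglial (193 CPM), endothelial (192 CPM) and mural (122 CPM) markers. Its erythrocyte markers, at 35.8 CPM, were the highest. ZT1 LPS replicate 1, the highest for *Hif3a*, had the highest neutrophil markers (42.9 CPM), LPS markers (1538 CPM) and choroid plexus and meninges markers (941 CPM) of the group. Replicate 1 was also next after replicate 2 for *Fkbp5*, *Sgk1*, *Pdk4*, *Mt1* and *Mt2*, but not for *Tsc22d3*, *Zbtb16* and *Cdkn1a*. Whether the targets follow inflammatory transcripts from mouse to mouse was not tested. Without ZT1 LPS replicate 2 the ZT1 count of called members was still 8, and *Cdkn1a* had a group of 18.7 to 20.2 CPM.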

How the data were processed

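The authors isolated RNA from mouse cortex (PureLink RNA Mini Kit), removed ribosomal RNA (KAPA RiboErase) and deposited 1 table of CPM (reads scaled to the library total) for 16 libraries. The submitters' processing notes name bcl2fastq, DRAGEN 4.0.3-8 and GRCm38. The counting annotation and strand setting are not given in the sources used here. Of 55774 lines, 287 identical repeats were removed. Only 80.7 to 82.4% of low values were whole multiples of 1 read (tolerance 0.01 reads), so no count test was run.

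Genes with 1 CPM or more in at least 3 libraries were fitted as log2(CPM + 0.5) with limma 3.58.1 (R 4.3.3), with an intensity trend and Benjamini-Hochberg adjustment over all 18859 genes. Pairwise comparisons used their 2 groups, and the interaction used all 16 mice. The scripts were tested on simulated data. Exact permutation tests of mean CPM and within-group permutation tests of correlations used scipy 1.17.1. Coordinates and exon lengths came from GENCODE M21 (GRCm38), and sequences from RefSeq GRCm38.p6.

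The members and gene lists were chosen with earlier results of these data known. All members were named. Of each other list the 3 called genes with the largest differences per comparison, and the 5 genes most like *Hif3a* and *Fkbp5*, were eligible for naming. Alternatives were other pseudocounts, filters, scalings and models, a replicate block, and leaving out each mouse. The result for 1 gene of these lists is not reported here.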

Additional observations from a re-analysis of the deposited data

Results flagged for a closer look

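In ZT1 LPS replicate 2, *Fkbp5* was 134.0 CPM, *Tsc22d3* 66.3 CPM, *Cdkn1a* 39.35 CPM and *Klf15* 44.2 CPM. Each stood apart from the other 4 mice, with the gap to the nearest mouse taking a share of 0.711, 0.751, 0.926 and 0.834 of the range of the group, where Dixon's critical share is 0.71. For 24 genes 48 groups of 5 mice were checked, and chance sets about 1 in 20 groups apart, or 2.4 of the 48. All 4 values came from 1 mouse, so they are not independent of each other.

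The LPS difference of *Hif3a* at ZT13 minus that at ZT1 was -1.50 on the log2(CPM + 0.5) scale (limma adjusted p = 0.0026). That of the clock output gene *Dbp* was -0.91 (limma adjusted p = 0.011).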

How the results depend on the processing

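For single genes 954 of 1030 repeated values kept their direction and their side of the threshold, 58 lost the call, 16 gained one and 2 changed sign. Both were the interaction of *Mt2*, at 0.0514 with sample quality weights and 0.0746 without ZT1 LPS replicate 2 (from -0.509 to 0.0746 over fits without 1 mouse), on the log2 scale, and the cause was not tested. Without the intensity trend 5 members were called at ZT1 and 1 between the times in PBS mice. With no filter on low values 4 were called at ZT13 and 1 in PBS mice. A single fit of all 16 samples called 3 in PBS mice, sample quality weights called 1 in LPS mice (*Hif3a*), and the ordinary 2-way linear model called 0 in the interaction. Leaving out 1 mouse gave 5 to 9 members at ZT1, 6 to 7 at ZT13, 1 to 7 in PBS mice, 0 to 1 in LPS mice, 1 in each interaction fit, and 2 to 9 correlated pairs. The same fits called 1767 to 3758, 4329 to 5547, 12 to 87, 0 to 345 and 7 to 104 of all genes in the 5 comparisons. The extremes in PBS mice, LPS mice and the interaction were without ZT1 PBS replicate 2 (12), without ZT1 LPS replicate 1 (345 and 104) and without ZT13 PBS replicate 2 (7). Over all genes, calls in PBS mice were 98 in the reported fit, 65 with no filter, 158 with a minimum of 5 CPM, 199 with quantile normalization, 43 in the single fit and 3 without the trend. At ZT1 they were 3061 and, with no filter, 1605. In LPS mice they were 4, against 1 with no filter, 122 in the single fit, 225 with quality weights and 0 without the trend. In the interaction they were 30, against 12 with no filter, 124 with quality weights, 11 without the trend and 5 in the ordinary model.

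Replicate numbers are shared between groups, but same-numbered mice did not deviate together (20 pairs, r from -0.20 to 0.33, 3 over 0.1, 4 best with their own number). With the replicate number as a block 9, 7, 5, 0 and 1 members were called at ZT1, at ZT13, in PBS mice, in LPS mice and in the interaction, out of 2637, 4680, 57, 3 and 25 genes. Libraries held 20251840 reads on genes or more, and 3 reads, the limit of detection, were 0.103 to 0.148 CPM.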
